A study of Mus musculus with 6 samples.

Results

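Respiratory complex I, the NADH:ubiquinone oxidoreductase of the inner mitochondrial membrane, was examined through the nuclear genes whose symbols begin with Nduf. The members were the protein-coding rows of the deposited table with such a symbol in the GENCODE M21 annotation, which made 46 of its 54393 gene rows. Of these, 36 encode subunits of complex I, 8 encode assembly factors (Ndufaf1 to Ndufaf8), and Ndufa4 and its paralog Ndufa4l2 belong with complex IV. RNA had been sequenced from the tibialis anterior, a predominantly fast-twitch muscle of the shin, in adult mice. The WT group was 3 muscles, whose sample titles begin with C57, the other group was 3 Dock3 KO muscles, and no agent was given to either group per the labels. The knockout allele, its strain background, the sex of the mice and whether each muscle came from a separate animal are not given in the sources used here, so p-values measure only the spread between these muscles.

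Complex I takes electrons from NADH, passes them along a chain of iron-sulphur clusters to ubiquinone and pumps protons across the membrane as it does so. Its L-shaped structure has an N-module that oxidises NADH, a Q-module that reduces ubiquinone, and a membrane arm with a proximal and a distal part. Mitochondrial DNA encodes the core membrane subunits, the nucleus encodes all others, and dedicated assembly factors join the modules without staying in the finished enzyme. In skeletal muscle the complex feeds the respiratory chain that supplies ATP during sustained work, and its loss causes muscle weakness in human mitochondrial disease.

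The genotype labels were checked on Dock3, a guanine nucleotide exchange factor for the GTPase Rac. Its normalized counts were 169, 161 and 118 in WT replicates 1, 3 and 4, and 22.4, 1.78 and 1.54 in Dock3 KO replicates 1, 2 and 3 (log2 difference -4.76, limma adjusted p = 0.0140). All values below follow the same order of replicates. Muscle markers such as Ckm and Acta1 summed to between 1867092 and 2139389 normalized counts in every sample. Summed normalized counts per sample ran from 23520223 to 33393950, or approximately 21700000 to 32500000 reads judged from the smallest values. Dock3 KO replicates 1 and 2 stood apart from the others. In these, the rows Gm42418 and Lars2 together held 17.9% and 20.3% of all normalized counts, and in the remaining samples 3.00% to 3.64%.

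Transcripts of 9 members had a near-identical copy elsewhere in the genome, and 10 of the 12 copies were processed pseudogenes, that is, retrocopies made from a spliced transcript. Such copies matter for reading the values, because short reads from a member and from its copy can be told apart only where their sequences differ. The stretches below are shown because they carry every difference within the sequence that Ndufa12, the member with the largest change, shares with its retrocopy Gm15920. Sequences are from the GRCm38 reference, 5′ to 3′ on the strand of transcription. Positions are counted from the first base of the Ndufa12 coding sequence, and capitals mark the differing base. The Ndufa12 stretches lie in coding exons on the plus strand at chr10:94199968-94200028 and chr10:94220807-94220858. Those of Gm15920 lie on the plus strand at chr5:130188463-130188523 and chr5:130188742-130188793. The first pair differs by A135G and the second by T414C.
Ndufa12, first stretch: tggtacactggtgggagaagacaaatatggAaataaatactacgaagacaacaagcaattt
Gm15920, first stretch: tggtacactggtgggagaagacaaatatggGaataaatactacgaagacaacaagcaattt
Ndufa12, second stretch: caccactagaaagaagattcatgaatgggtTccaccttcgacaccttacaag
Gm15920, second stretch: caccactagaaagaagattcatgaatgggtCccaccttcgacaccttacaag
These are the only 2 differences over the 402 bases of Gm15920, which runs from coding base 37 of Ndufa12 to the end of its stop codon at base 438. Identity was 99.5% there, so a read pair lying wholly within these bases and covering neither position could have come from either locus. The main transcript of Ndufa12 has 1110 bases, and those outside the shared part are not in Gm15920.

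Of the 46 members, only the Ndufa12 row was called higher in Dock3 KO muscle, and no member was called lower. Summed with its retrocopy Gm15920, Ndufa12 was not called (log2 difference -0.11, limma adjusted p = 0.879). Over all 16031 genes tested, limma with Benjamini-Hochberg adjustment called 1.03% at an adjusted p under 0.05, 0.443% higher and 0.586% lower. The log2 difference of the other 45 members, Dock3 KO minus WT, ran from -0.35 to 0.36, and their smallest adjusted p was 0.491 (limma). None of these 45 had an unadjusted p under 0.05, where 10.5% of all genes tested did. In whole muscle, fewer cells of a type and less RNA per cell cannot be told apart. Over all 46 the median log2 difference was 0.09, against -0.01 over all genes tested. The difference was above 0 for 34 members, where 49.0% of all genes tested were above 0. That count depends on scaling: it was 27 after quantile normalization and 4 after every sample was rescaled to the same total. The last of these moved the median of all genes to -0.28. It shifts all genes nearly alike, so by construction the members' median stayed 0.09 above that of all genes. This offset was 0.02 after quantile normalization and -0.002 without Dock3 KO replicate 1.

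**Figure D1:**
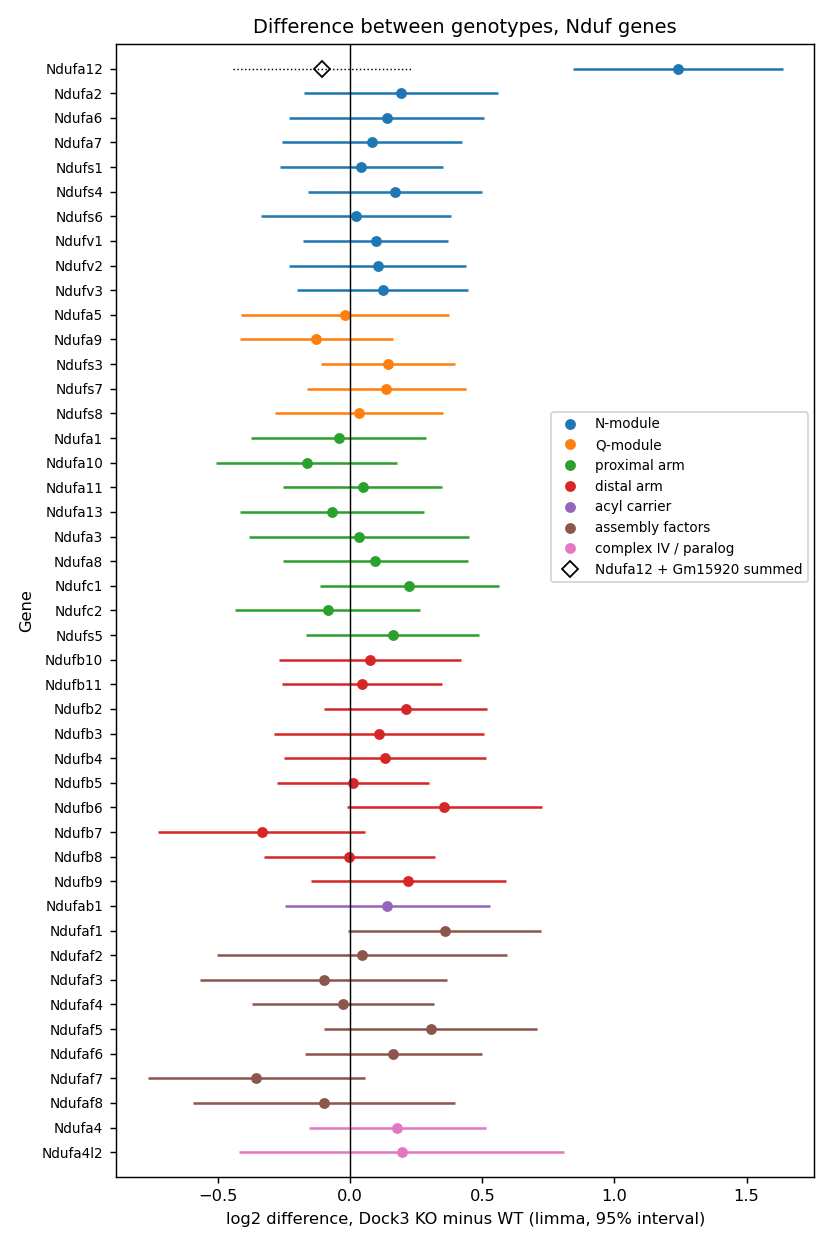
Difference between genotypes for 45 of the Nduf genes, on the log2(normalized count + 1) scale, Dock3 KO minus WT, with limma 95% intervals; colours give the structural group and the diamond gives Ndufa12 summed with its retrocopy Gm15920. Ndufa12 stands at 1.24, the others plotted lie between -0.35 and 0.36, and the diamond lies at -0.11.

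Precision was sufficient to bound most of these differences. The 95% interval lay within a 2-fold change in either direction for 45 of 46 members, against 64.1% of all genes tested, and within 0.5 on the log2 scale for 26 members. The Dock3 KO mean was within 20% of the WT mean for 40 members. The 2 genotypes did not overlap for 4 members, where 16.2% of all genes tested did not overlap. Ndufa12, Ndufaf1 and Ndufs3 were higher in every Dock3 KO muscle (7.6% of all genes tested), and Ndufaf7 was lower (8.65%).

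Ndufa12 (ENSMUSG00000020022, chromosome 10, 94198720 to 94221443, plus strand, GRCm38) encodes an accessory subunit at the junction of the N-module and the Q-module. Its normalized counts were 1055, 1471 and 1539 in WT and 3823, 2838 and 2902 in Dock3 KO. Each Dock3 KO muscle lay above every WT muscle. The means were 1355 ± 262 and 3188 ± 552 (SD, n = 3 each), a ratio of 2.35. On the log2 scale it differed by 1.24 (SE 0.178, 95% interval 0.84 to 1.64), with a limma adjusted p of 0.00822. An exact two-sided permutation test of 3 against 3 gave p = 0.1, the smallest p that design allows. Ndufa12 made up 0.954% to 1.204% of the members' summed normalized counts in WT and 2.35% to 2.63% in Dock3 KO.

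Leaving out any 1 muscle kept Ndufa12 past the threshold, with a log2 difference of 1.07 to 1.34. Its call was lost, at a similar size, when the prior variance did not follow expression (adjusted p = 0.114) and with log2 Gm42418 as a covariate (1.14, adjusted p = 0.286, both limma). Without both Dock3 KO replicates 1 and 2, which leaves 1 Dock3 KO muscle, the log2 difference was 1.12.

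The retrocopy moved the other way. Gm15920 (ENSMUSG00000080893) is a processed pseudogene on chromosome 5, from 130188395 to 130188796 on the plus strand, inside Rabgef1 and on the same strand as that gene. Its normalized counts were 2042, 1925 and 2360 in WT and 36.7, 32.9 and 59.1 in Dock3 KO, with a log2 difference of -5.63 (limma adjusted p = 1.1e-06). In WT the retrocopy thus held more normalized counts than Ndufa12 itself in each muscle, and in Dock3 KO far fewer. Of the 2 rows together, Gm15920 held 65.9%, 56.7% and 60.5% in WT and 0.950%, 1.15% and 1.997% in Dock3 KO.

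Ndufa12 and Gm15920 summed to 3097, 3395 and 3899 normalized counts in WT and to 3860.0, 2871 and 2961 in Dock3 KO. The 2 groups overlapped. The log2 difference of the sum was -0.11 with a 95% interval of -0.45 to 0.23 (limma adjusted p = 0.879), and an exact permutation test gave p = 0.5. The sum therefore did not differ beyond the spread between muscles, and its interval does not reach the 1.24 found for Ndufa12 alone. With all members summed with their copies, no member was called, where 1.02% of the 16027 rows then tested were, and no member reached an unadjusted p of 0.05. How reads were divided between the 2 loci is not given in the sources used here, and its part in the difference of Ndufa12 was not tested.

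**Figure D2:**
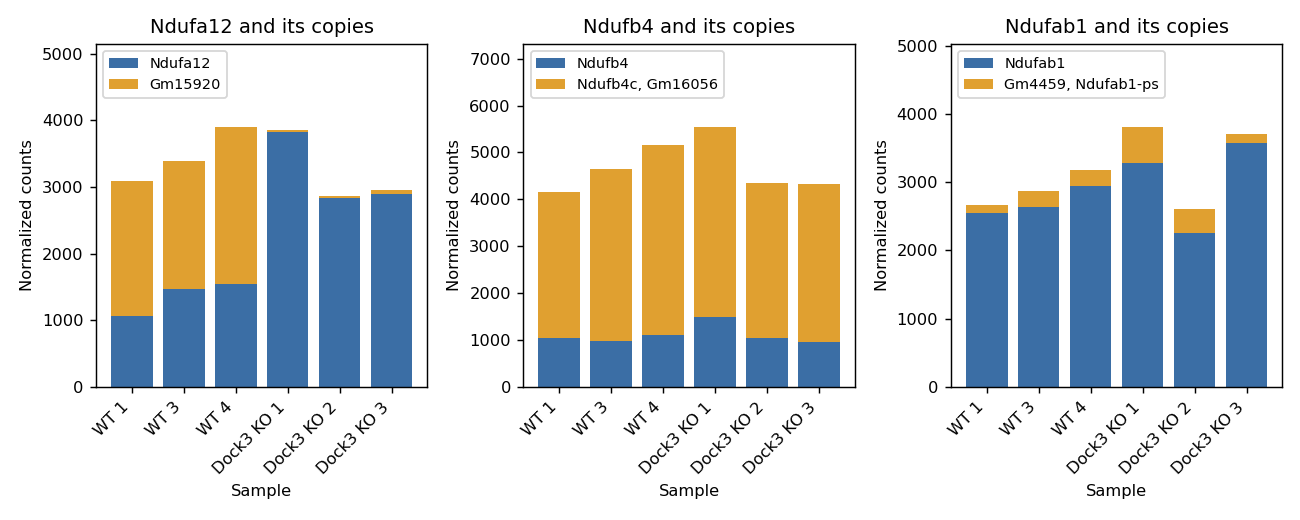
Normalized counts per sample for members and their near-identical copies, as stacked bars from 0 over the 3 WT and 3 Dock3 KO muscles. For Ndufa12 the copy holds 56.7% to 65.9% of the bar in WT and 0.950% to 1.997% in Dock3 KO, while the full bars of the 2 genotypes overlap; for Ndufb4 the copies hold 73.3% to 79.0% in every muscle.

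Ndufb4 and Ndufab1 were the other subunits with appreciable counts in retrocopies. Ndufb4 is a membrane subunit of the distal arm, and its retrocopy Ndufb4c (chromosome 15, 73809507 to 73809896, minus strand, GRCm38) is identical to it over 390 bases. The stretch below is shown as an example of a sequence that cannot be assigned to either locus. It lies in coding exons of Ndufb4 on the minus strand, spans an intron there (chr16:37649115-37654194) and is uninterrupted in the retrocopy (chr15:73809671-73809731).
Ndufb4: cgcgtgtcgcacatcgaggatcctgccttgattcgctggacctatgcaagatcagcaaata
Ndufb4c: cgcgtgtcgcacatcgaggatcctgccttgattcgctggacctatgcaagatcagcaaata
Ndufb4 itself had 1042, 976 and 1105 normalized counts in WT and 1482, 1037 and 961 in Dock3 KO. Its copies had 3109, 3680 and 4051 in WT and 4060, 3305 and 3369 in Dock3 KO. The copies thus held 73.3% to 79.0% of the sum over the 6 muscles, and the genotypes overlapped in that share. The log2 difference was 0.13 for Ndufb4 and 0.02 for the sum (limma adjusted p = 0.870 and 0.981).

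Ndufab1 encodes the mitochondrial acyl carrier protein, which is a subunit of complex I and also serves fatty acid synthesis and iron-sulphur cluster assembly. Its retrocopy Gm4459 (chromosome 7, 139659688 to 139660155, minus strand) spans the whole coding sequence of 468 bases with 1 difference, G137A, counted from the first coding base. The differing stretch is shown because it is the only place in the coding sequence where reads separate the 2 loci. It lies on the minus strand, at chr7:122101656-122101716 for Ndufab1 and chr7:139659989-139660049 for Gm4459.
Ndufab1: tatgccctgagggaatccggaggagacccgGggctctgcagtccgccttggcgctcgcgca
Gm4459: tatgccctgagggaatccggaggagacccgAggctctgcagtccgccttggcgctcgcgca
Ndufab1 had 2547, 2632 and 2949 normalized counts in WT and 3285, 2257 and 3572 in Dock3 KO. Gm4459 had 126, 234 and 229 in WT and 518, 352 and 129.97 in Dock3 KO. The groups overlapped for both rows. The log2 difference was 0.14 for Ndufab1 and 0.20 for its sum with its copies (limma adjusted p = 0.859 and 0.752). Copies of Ndufs3, Ndufs5, Ndufs6, Ndufb3 and Ndufb11 held under 2% of the sum in every muscle.

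The N-module holds the entry point for electrons. Besides Ndufa12, its 9 other members include Ndufv1, which binds NADH and the flavin, Ndufv2 and Ndufs1, which carry iron-sulphur clusters, and Ndufs4, a gene mutated in Leigh syndrome. All 10 N-module members had a difference above 0, with a median of 0.11, but only Ndufa12 passed the test. Ndufv1 had 3315, 4002 and 3637 normalized counts in WT and 4139, 3704 and 3851 in Dock3 KO, so the groups overlapped (log2 difference 0.10, limma adjusted p = 0.864). Ndufs1, the largest subunit, had a difference of 0.04 and an interval of -0.27 to 0.35. Ndufs4 had a difference of 0.17 and an interval of -0.16 to 0.50. After rescaling to the same total, which moved all genes down, 1 of the 10 was above 0. All 10 stayed above the median of all genes, a position that such a common shift leaves nearly unchanged by construction. After quantile normalization 8 were above 0 and 8 above that median. With members summed with their copies 9 of the 10 were above 0. Without Dock3 KO replicate 1 there were 7 above 0, and with log2 Gm42418 as a covariate 5. Without both Dock3 KO replicates 1 and 2, which leaves 1 Dock3 KO muscle, there were 5 above 0 and 5 above that median.

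The Q-module receives the electrons and reduces ubiquinone, and Ndufs7 forms part of the pocket that holds it. Its 6 members had a median difference of 0.03, with 4 above 0, and none was called. Ndufs3, a core subunit of the module, had the smallest p of the 6, with normalized counts of 3019, 3008 and 3309 in WT and 3566, 3410 and 3341 in Dock3 KO. Every Dock3 KO muscle lay above the WT muscles, by a small margin. The log2 difference was 0.14 with an interval of -0.11 to 0.40 (limma adjusted p = 0.742), and it turned to -0.13 after rescaling to the same total.

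The proximal membrane arm joins the Q-module to the membrane. Its 9 members had a median difference of 0.03, with 5 above 0, and none was called. Ndufc1, a small single-pass membrane subunit, had the smallest p, with 1845, 1881 and 2183 normalized counts in WT and 2578, 1875 and 2499 in Dock3 KO. Dock3 KO replicate 2 lay among the WT values (log2 difference 0.22, interval -0.11 to 0.56, limma adjusted p = 0.686). Ndufa13, also known as Grim19, had a difference of -0.07 and an interval of -0.42 to 0.28. Ndufa10, which resembles nucleoside kinases, had the lowest difference of the group, -0.16, with an interval of -0.51 to 0.18.

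The distal membrane arm lies at the far end of the proton-pumping part. Its 10 members had a median difference of 0.09, with 8 above 0, and none was called. Ndufb6, a single-pass subunit, had the smallest p, with 991, 1364 and 1322 normalized counts in WT and 1720, 1311 and 1666 in Dock3 KO. Dock3 KO replicate 2 overlapped the WT muscles (log2 difference 0.36, interval -0.01 to 0.73, limma adjusted p = 0.499). Ndufb7 had the lowest difference of the arm, with 1162, 1549 and 1729 in WT and 1331, 989 and 1177 in Dock3 KO. Here the groups overlapped too (difference -0.34, interval -0.73 to 0.06, limma adjusted p = 0.566). Ndufb9, a subunit that holds the acyl carrier protein in this arm, had 4943, 6362 and 7022 in WT and 8161, 6094 and 7019 in Dock3 KO, with a difference of 0.22 (limma adjusted p = 0.725). Ndufb11, which is X-linked, had 4546, 5186 and 5210 in WT and 5943, 4867 and 4665 in Dock3 KO, with a difference of 0.05 (limma adjusted p = 0.954).

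A distal arm subunit, Ndufb1, is outside the 46 because its gene, Ndufb1-ps, is annotated as a bidirectional promoter noncoding RNA. Its normalized counts were 1642, 1723 and 1788 in WT and 2868, 2032 and 1740 in Dock3 KO, and the groups overlapped (log2 difference 0.33, limma adjusted p = 0.569).

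The 8 assembly factors were split evenly, 4 above 0 and 4 below, with a median difference of 0.01 and no call. Ndufaf1, a core protein of the assembly complex for the membrane arm, had 380, 452 and 458 normalized counts in WT and 582, 619 and 459 in Dock3 KO. The groups did not overlap, although WT replicate 4 and Dock3 KO replicate 3 were nearly equal. The log2 difference was 0.36 with an interval of -0.01 to 0.72 (limma adjusted p = 0.491), the smallest adjusted p after Ndufa12. Ndufaf7, a methyltransferase of the mitochondrial matrix, had 267, 241 and 350 in WT and 234, 220 and 208 in Dock3 KO. Every Dock3 KO muscle lay below the WT muscles (difference -0.35, interval -0.77 to 0.06, limma adjusted p = 0.561). Summed with 2 miscellaneous RNA genes that share about 150 bases of its sequence, it had a difference of -0.21 (limma adjusted p = 0.755) and the groups overlapped, at 257 to 368 in WT and 255 to 266 in Dock3 KO. Without WT replicate 4, Ndufaf7 alone differed by -0.20.

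Ndufaf2 is a paralog of Ndufa12 that occupies its place during assembly and is replaced by it. Normalized counts of Ndufaf2 were 72.2, 101 and 95.2 in WT and 111, 78.6 and 87.0 in Dock3 KO. The groups overlapped, and the log2 difference was 0.04 with an interval of -0.51 to 0.59 (limma adjusted p = 0.977). Ndufaf5, which hydroxylates Ndufs7, had a difference of 0.31 and an interval of -0.10 to 0.71. Its partner Ndufaf8 had a difference of -0.10 and an interval of -0.60 to 0.40. Ndufaf3 and Ndufaf4, which act together on the Q-module, had differences of -0.10 and -0.03. Ndufaf3 is the only member on chromosome 9, which also carries Dock3.

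Ndufa4, named as a complex I subunit and now placed in complex IV, was the most abundant member. Its normalized counts were 8745, 9013 and 10195 in WT and 12580.0, 10204 and 9072 in Dock3 KO, and the groups overlapped (log2 difference 0.18, limma adjusted p = 0.758). Ndufa4l2, its hypoxia-induced paralog, had 117, 135 and 115 in WT and 188, 91.0 and 160.1 in Dock3 KO. The Dock3 KO values enclosed those of WT (difference 0.20, interval -0.42 to 0.81, limma adjusted p = 0.879).

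**Figure D3:**
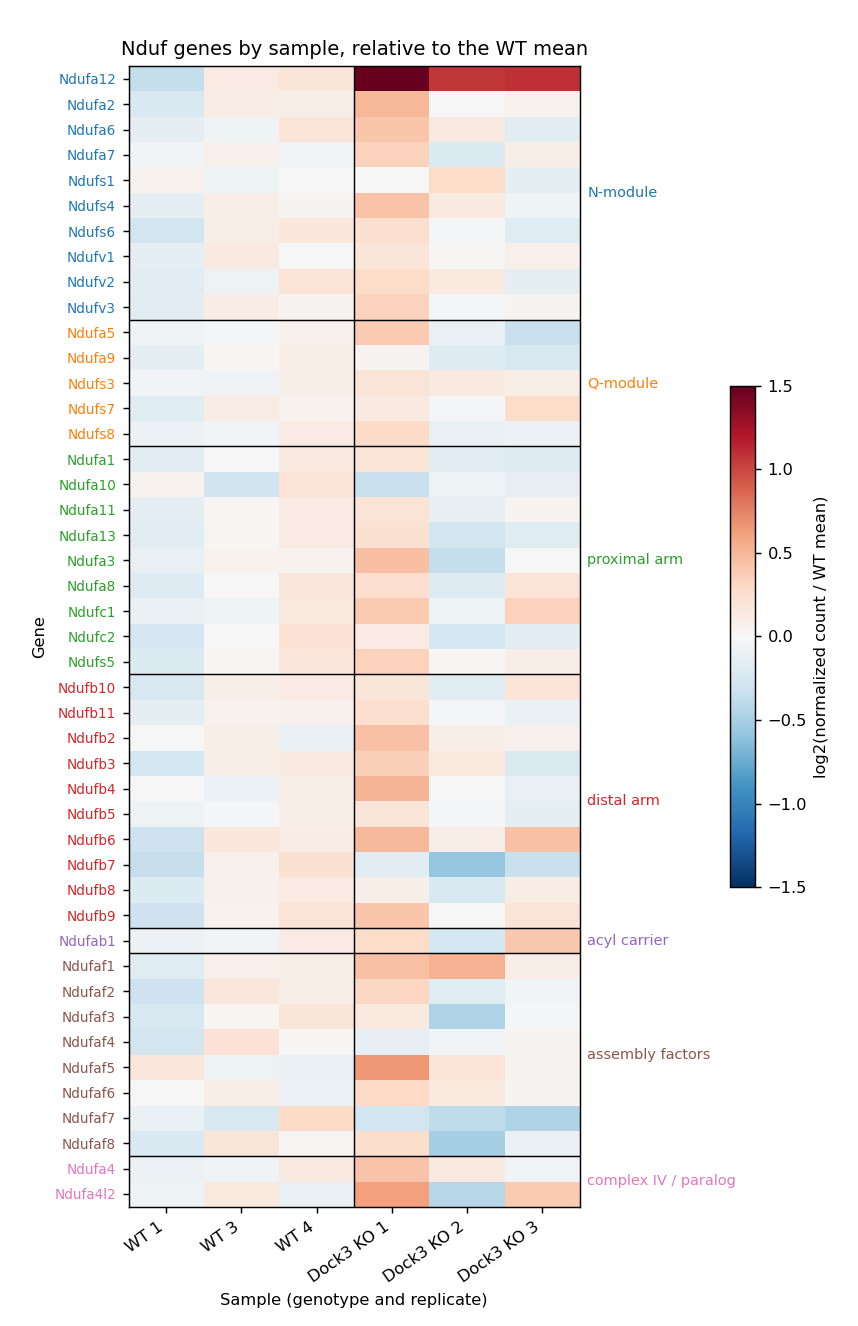
Heat map of 45 of the Nduf genes (rows, by structural group) in the 6 muscles (columns), coloured by log2 difference of each value from the gene's WT mean. Ndufa12 is raised in all 3 Dock3 KO muscles, and most other rows are highest in Dock3 KO replicate 1, as 33 of 46 members are.

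Members also varied between muscles of the same genotype. Dock3 KO replicate 1 had the highest value of the 6 for 33 members, and WT replicate 1 the lowest for 20. After each gene was centred on its mean log2 value, the median over members was -0.17, 0.02 and 0.06 in WT and 0.25, -0.08 and -0.04 in Dock3 KO. Without Dock3 KO replicate 1, the median log2 difference of the members was -0.01 and 22 of 46 were above 0. The raised level in that muscle was not limited to complex I. Nuclear subunits of complexes II to V had a centred median of 0.23 there, and 1598 protein-coding genes with under 2000 exon bases had 0.16. The 29 members of that length had 0.28 there and the 17 longer members 0.13. The 11839 protein-coding genes with 2000 or more exon bases had -0.02 there. Red cell markers such as Hbb-bs and Hba-a1 were also highest in that muscle, with a sum of 97745 normalized counts and 28568 to 54966 across the other 5. All 6 of these markers had a log2 difference above 0 between genotypes, and none was called. The part of transcript length and of blood in the members' values was not tested.

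**Figure D4:**
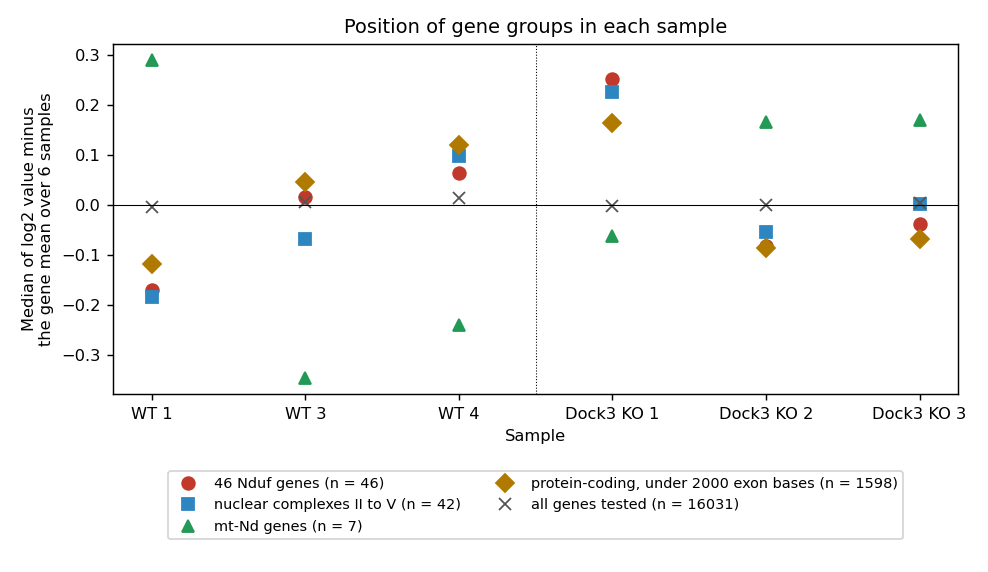
Median centred log2 value in each of the 6 muscles for the Nduf genes, the nuclear genes of complexes II to V, the mitochondrial-genome subunits, short protein-coding genes and all genes tested. The Nduf genes and complexes II to V are lowest in WT replicate 1 (-0.17 and -0.19) and highest in Dock3 KO replicate 1 (0.25 and 0.23), and all genes tested stay near 0.

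The members' summed normalized counts were 110674, 122106 and 129273 in WT and 145279, 120534 and 122236 in Dock3 KO. As a share of all normalized counts this was 0.442%, 0.519% and 0.488% in WT and 0.435%, 0.365% and 0.486% in Dock3 KO. The shares of Dock3 KO replicates 1 and 2 were the lowest. With Gm42418 and Lars2 left out of the total, the shares were 0.458% to 0.538% in WT and 0.530%, 0.458% and 0.504% in Dock3 KO, and the groups overlapped.

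Levels were compared between genes per length, as normalized counts per kb of the main transcript. On this scale the subunits of complex I spanned 779 (Ndufab1) to 9401 (Ndufb8) in WT, with a median of 2821. The assembly factors spanned 132 (Ndufaf2) to 427 (Ndufaf5), with a median of 257. Every assembly factor thus lay below every subunit. In Dock3 KO the ranges were 873 to 10073 for subunits and 126 to 534 for assembly factors, again without overlap. Per kb of all merged exons, a scale that includes rare exons, the 2 classes were separate in WT, but in Dock3 KO 4 assembly factors, Ndufaf1 (369), Ndufaf5 (348), Ndufaf6 (312) and Ndufaf8 (263), lay above the subunit Ndufb7 (258).

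Per kb of merged exons, the 3 highest members in WT were Ndufa4 (6747 ± 558), Ndufb9 (5925 ± 1030.2) and Ndufb11 (5485 ± 415), all SD with n = 3. Ndufb9 lay within its own SD of both neighbours in this order. The 3 lowest were Ndufaf2 (30.03 ± 5.09), Ndufaf7 (81.6 ± 16.2) and Ndufa4l2 (112 ± 10.3). Per kb of the main transcript, Ndufa12 moved from rank 34 of 46 in WT (1221) to rank 20 in Dock3 KO (2872), near the subunit median of 2991 there. That move belongs to the Ndufa12 row alone, since its sum with Gm15920 had means (± SD over 3 muscles) of 3464 ± 405 normalized counts for WT and 3230.4 ± 547 for Dock3 KO.

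**Figure D5:**
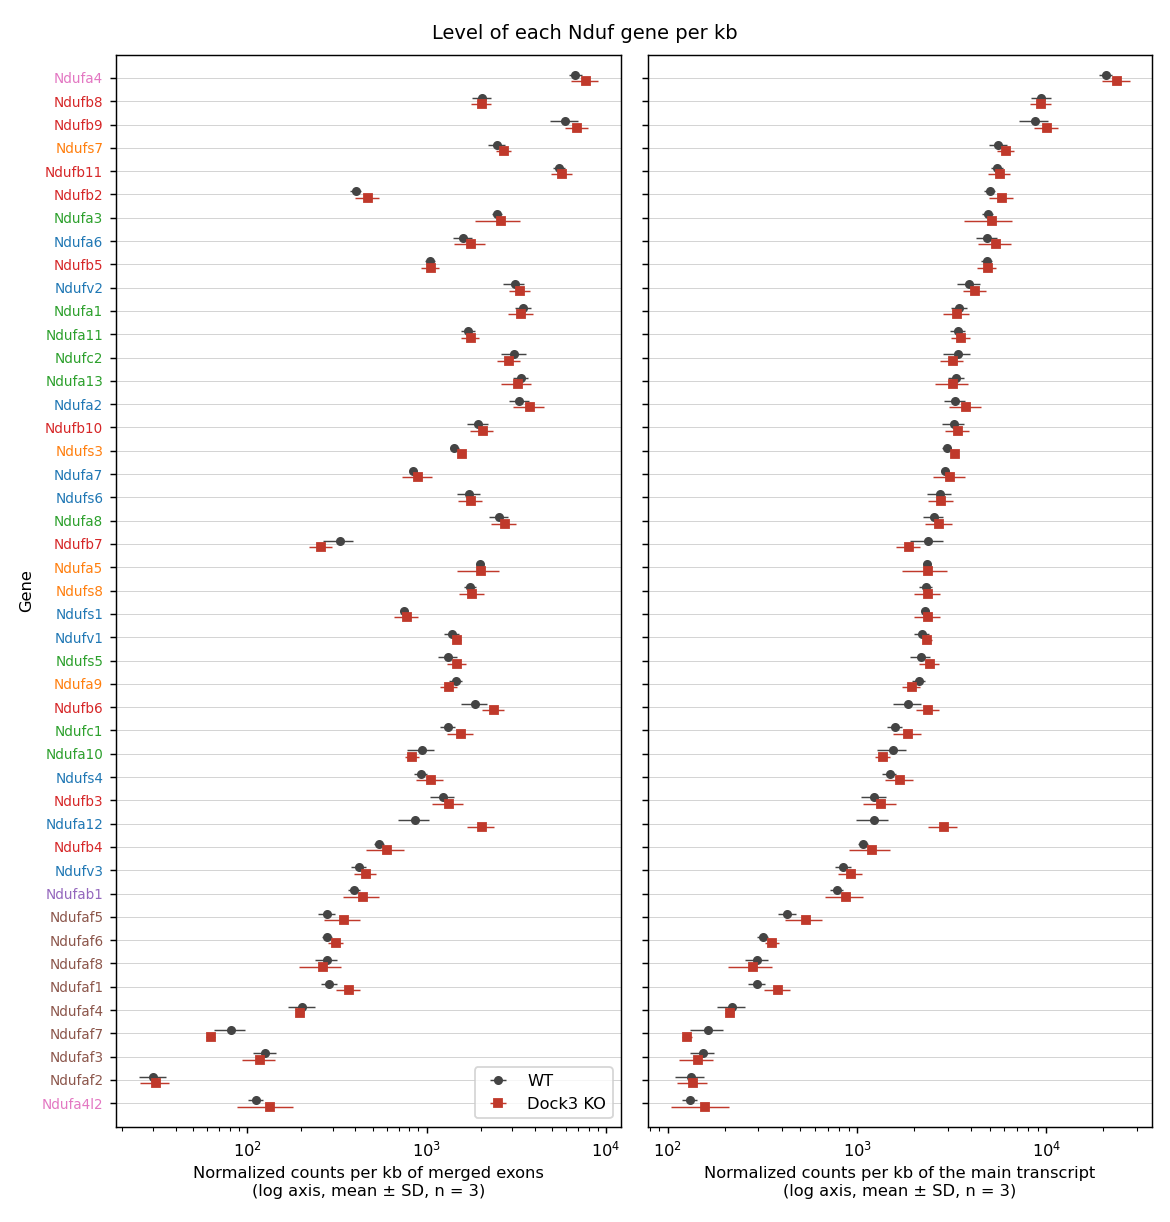
Normalized counts per kb, on a log axis, for 45 of the Nduf genes in WT and Dock3 KO, with points at the mean and bars of 1 SD (n = 3 muscles). Per kb of the main transcript the 8 assembly factors (132 to 427 in WT) lie below the complex I subunits plotted (779 to 9401).

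Other genes of the pathway gave no call with limma, where 1.03% of all genes tested were called. An unadjusted p under 0.05 was found for 10.5% of all genes tested. Among the pathway lists it was found for 3 of 11 assembly factors with other names and 1 of 13 iron-sulphur assembly genes. Of complexes II to V 3 of 42 genes had one, and of the remaining pathway lists 0. The 7 complex I subunits of the mitochondrial genome had a median log2 difference of 0.28, with 6 above 0. Their order across muscles was unlike that of the nuclear members, with a centred median of 0.29 in WT replicate 1 and -0.06 in Dock3 KO replicate 1. mt-Nd6, the subunit on the light strand, had 2966, 2886 and 2864 normalized counts in WT and 3608, 3998 and 3048 in Dock3 KO. Every Dock3 KO muscle was higher (difference 0.28, interval -0.01 to 0.57, limma adjusted p = 0.4998). Its difference was 0.0053 after rescaling to the same total, 0.039 with log2 Gm42418 as a covariate and 0.069 without both Dock3 KO replicates 1 and 2. The last of these settings leaves 1 Dock3 KO muscle. Of the assembly factors with other names, 11 were matched and 7 were above 0, with a median of 0.05. Foxred1, an oxidoreductase-like assembly factor, had 308, 275 and 211 in WT and 155, 149.7 and 179.8 in Dock3 KO, with no overlap (difference -0.70, limma adjusted p = 0.192).

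Iron-sulphur cluster assembly, which supplies the cofactors of the N-module and Q-module, had 7 of 13 genes above 0 and a median of 0.01. Hspa9, the chaperone that passes clusters on, had 3206, 3213 and 3310 normalized counts in WT and 3490, 4991 and 4055 in Dock3 KO. It was higher in every Dock3 KO muscle (difference 0.35, limma adjusted p = 0.426). Regulators of mitochondrial genes had 4 of 10 above 0 and a median of -0.02. Nrf1, an activator of nuclear respiratory genes, had 204, 204 and 252 in WT and 323, 260.0 and 253 in Dock3 KO, without overlap (difference 0.34, limma adjusted p = 0.572).

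The nuclear subunits of complexes II to V resembled the members in direction, with 35 of 42 above 0, a median of 0.11 and no call. Their values after rescaling to the same total had a median of -0.16. Atp5g3, a gene for subunit c of ATP synthase, had 4070, 5107 and 4486 normalized counts in WT and 7302, 5794 and 6621 in Dock3 KO. All Dock3 KO muscles lay above WT (difference 0.53, interval 0.22 to 0.84, limma adjusted p = 0.158).

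Markers of fibre types and other cells were read beside these lists. Markers of oxidative fibres, which hold more mitochondria, summed to 29041 to 47376 normalized counts in WT and 49397 to 54409 in Dock3 KO. The sums did not overlap, but 5 of the 10 genes were above 0 and none was called. Fibroblast markers summed to 32839 to 34323 in WT and 40184 to 46122 in Dock3 KO, and 4 of the 6 genes were above 0 and 2 below. Col1a1 and Col3a1 were called higher (log2 differences 1.38 and 0.87, limma adjusted p = 0.0228 and 0.0168), and the lowest difference of the list was -0.48. Sums of adipocyte, macrophage and nerve markers overlapped between genotypes, no gene of these lists was called, and the brown-fat gene Ucp1 was at 0 in all 6 muscles. Above 0 were 5 of the 6 adipocyte markers tested, 1 of 8 macrophage markers and 3 of 6 nerve markers. The median log2 difference of the macrophage markers was -0.24. The part of all these markers in the members' values was not tested.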

How the data were processed

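The authors deposited 1 table of normalized counts, used here as a signal per gene; the normalization method and the treatment of reads matching several genes are not given in the sources used here. Per the submitters' processing notes, Trim Galore 0.4.5, Salmon 0.12.0, DESeq2 1.22.1 and R 3.5.3 were used, with roles not stated. A fold change depends on that scaling. Libraries were stranded and depleted of ribosomal RNA, per the labels' protocols. All 54393 identifiers matched GENCODE M21 (GRCm38), which gave symbols and 1-based positions.

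Genes with a mean of at least 10 were compared on log2(value + 1), which understates changes of low genes, with limma 3.58.1 in R 4.3.3 (eBayes with trend, no covariates), checked on simulated data. Benjamini-Hochberg adjustment covered all 16031 genes tested, with a threshold of 0.05. Copies were found with blastn 2.17.0 (minimum identity 95%, covering 50% or more of the shorter transcript and at least 100 bases). The members and lists were chosen with earlier results of these data known. Members named with values in every sample were those past the threshold or without overlap, the smallest p of each structural group, the 3 highest and 3 lowest per length, those with copies holding at least 10% of the sum, and Ndufa4 and Ndufa4l2; of other lists, the gene with the smallest p. Other members with such values (Ndufv1, Ndufb7) and Ndufb1-ps were added after their values were seen. The values of 1 member are not reported here, though it is counted in the summaries. Alternatives were other pseudocounts, filters, scalings, prior variances and left-out muscles.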

Additional observations from a re-analysis of the deposited data

How the results depend on the processing

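Of the 165 genes called (71 higher, 94 lower, limma), 43.0% were higher, against 23.2% (41 higher) after rescaling to the same total, and 31.9% when Gm42418 and Lars2 were left out of that total, a setting added after the data were seen, as were the next 2. With log2 Gm42418 as a covariate 57 genes were called (17 higher, 40 lower), and without both Dock3 KO replicates 1 and 2 there were 56 (9 higher, 47 lower). A prior variance without trend gave 104 (34 higher), and protein-coding genes alone gave 104 (50 lower). Members called higher fell from 1 to 0 with the covariate, without the trend and with members summed with their copies, where Ndufa12 turned to -0.11. The Ndufa12 difference was 1.24 (SE 0.178) in the main fit. It was 1.24 (SE 0.218) without the trend, which changes only the SE, and 1.14 (SE 0.278) with the covariate. Why the SE was larger with the covariate was not tested. Leaving out 1 muscle gave 100 to 159 calls (35 to 69 higher, 57 to 93 lower), with 100 without WT replicate 4, 102 without Dock3 KO replicate 2 and 45 higher without WT replicate 3, always with 1 member called higher, 0 lower, and a median difference of the members of -0.01 to 0.14.

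Rescaling to the same total moved the median of all genes to -0.28 and that of the members to -0.19, so small differences above 0 turn by construction. Members above 0 fell from 34 to 4. Signs were followed gene by gene only for the members chosen by the naming rule given above. Among these, those that turned were Ndufs3 (-0.13), Ndufc1 (-0.051), Ndufab1 (-0.14), Ndufa4 (-0.10), Ndufaf2 (-0.23), Ndufa4l2 (-0.078), Ndufb11 (-0.23), Ndufb9 (-0.056) and Ndufb4 (-0.14), none called. Without Gm42418 and Lars2 in the total, Ndufaf2 and Ndufb11 were both at -0.058. Ndufb11 was at -0.031 after quantile normalization. With the covariate, Ndufa4 was at -0.050, Ndufb11 at -0.091 and Ndufb4 at -0.14. Without both Dock3 KO replicates 1 and 2, Ndufa4 was at -0.035, Ndufaf2 at -0.025, Ndufb11 at -0.092 and Ndufb4 at -0.11. With 1 muscle left out, Ndufaf2 ran from -0.10 to 0.15, Ndufb11 from -0.061 to 0.11, Ndufa4l2 from -0.016 to 0.50 and Ndufb4 from -0.059 to 0.25.

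With the replicate number as a block, 127 genes were called and Ndufa12 had a difference of 1.42 (limma adjusted p = 0.0133). Only numbers 1 and 3 occur in both genotypes, so WT replicate 4 and Dock3 KO replicate 2 did not enter that difference. The labels do not say whether a shared number marks paired muscles. Between the WT and Dock3 KO muscles of numbers 1 and 3, the correlation of deviations was 0.065 and 0.0066. With 3 muscles per genotype these values cannot decide whether the muscles were paired. Tests of whole reads with edgeR and DESeq2 were not run, because only 15.2% to 25.8% of low values were whole multiples of 1 read within 0.01. The 3 muscles per genotype and the estimated depth limit what could be detected.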
